A study of Mus musculus with 12 samples.

Results

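The genes described here carry the response of the heart to adrenaline and noradrenaline: the receptors Adrb1, Adra1a and Adra1b, the G protein subunit Gnas, the adenylyl cyclases Adcy5 and Adcy6, the kinase subunit Prkaca and the phosphodiesterases Pde3a and Pde4d. They were chosen by symbol, and all 9 were found once each among the 24918 rows of the deposited log2 table and passed the filter on low values. RNA of hearts of untreated C57BL/6 mice aged 2 months was sequenced in 12 libraries, 3 in each of 4 groups. By their titles, male and female floxed mice (GRloxP,loxP) had both copies of the glucocorticoid receptor gene Nr3c1 flanked by loxP sites, and male and female cardioGRKO mice (GRloxP/loxPαMHCCre/+) also had 1 copy of a Cre recombinase. The αMHC promoter drives Cre in cardiomyocytes, so other cells of the heart keep the receptor, and as no floxed mouse carried Cre, its effect and that of the deletion cannot be told apart. The genotype field reads wild-type for every library, which leaves the titles as the source of the groups. The labels do not say that libraries of 1 group come from separate animals, so p-values measure the spread between these libraries only.

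Catecholamines bind beta-adrenergic receptors on cardiomyocytes, which through the stimulatory G protein switch on adenylyl cyclase. The cyclic AMP it makes releases the catalytic subunit of protein kinase A, whose phosphorylation of calcium handling and contractile proteins makes the heart beat faster and harder, and phosphodiesterases end the signal by degrading cyclic AMP. Alpha1 receptors act instead through Gq and phospholipase C.

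Some measurements of whole libraries bear on what follows. Nr3c1 fell by 0.56 on the log2 scale in male cardioGRKO libraries but was 0.14 higher in libraries labelled female cardioGRKO than in those labelled female floxed (limma, adjusted p = 2.4e-11 and 0.00038), against the label. Both groups labelled female, at means of 10.75 and 10.88, lay near male cardioGRKO (10.85) and below male floxed libraries (11.41), and Nr3c1 differed by -0.67 between the floxed groups (adjusted p = 1.4e-12). Neither group labelled female thus had the level of male floxed hearts. Whether the 2 female labels are exchanged, or the group labelled female floxed is atypical, was not tested. Each female value and each comparison of the sexes below carries that doubt. Krt12, a keratin of the cornea, reached 13.13 and 13.98 in replicates 1 and 2 of the female floxed label and no more than 8.49 elsewhere, and 6 of 7 corneal and epithelial markers were called lower under the female cardioGRKO label. The general cardiomyocyte markers were abundant in all libraries (10 of 10 tested, Myh6 alone at 2.68% to 2.90% of all signal). The summed linear level of 6 atrial markers ran from 28800 to 29300 in male floxed and from 134000 to 135000 in male cardioGRKO libraries, and from 105000 to 108000 and from 50000 to 51100 under the female floxed and cardioGRKO labels. The 7 endothelial markers summed to 100000 to 101000, 84000 to 84700, 76900 to 79100 and 88200 to 89200 in the same order. Cd36 weighs most in this sum, at 15.23 to 15.75 on the log2 scale, against at most 13.59 for Cdh5, the next highest. In whole hearts, fewer cells of a type and less RNA per cell cannot be told apart, and the part of any of these shifts in the results below was not tested unless a value is given for it.

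**Figure D1:**
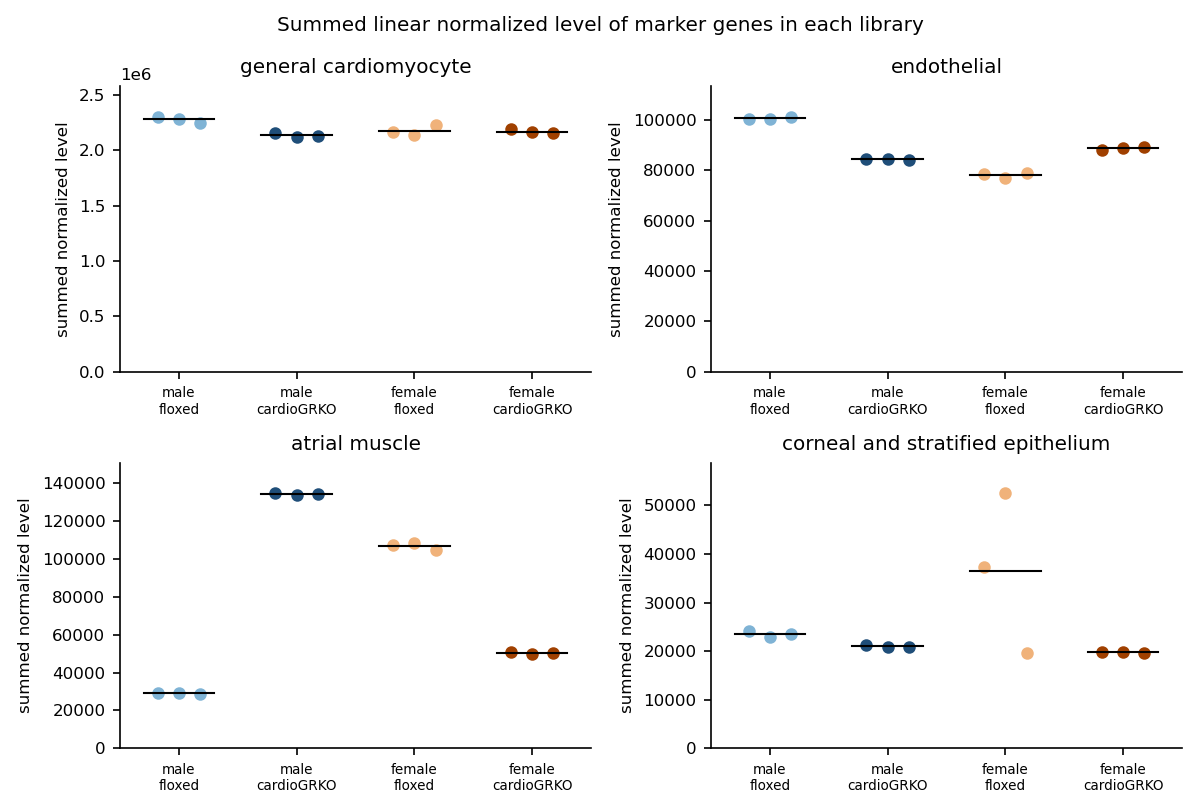
Summed linear normalized level of 4 marker lists (vertical axes, from 0) in each library (points, in replicate order) and group means (lines). Atrial markers are lowest in male floxed libraries (28800 to 29300) and highest in male cardioGRKO ones. Endothelial markers are highest in male floxed libraries, and the epithelial sum is highest in 2 libraries labelled female floxed. The epithelial list holds Dsp, at 14.18 to 14.51 on the log2 scale over the 12 libraries, which gives its sum a high level in all of them.

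The comparison of cardioGRKO with floxed hearts asked which of these transcripts differ when cardiomyocytes lack the receptor. In males, Prkaca (13% higher) and Adcy5 (6.5% higher) rose, and Adcy6 (12% lower) and Adra1a (8.8% lower) fell, which is 4 of the 9 genes against 27.4% of all 14721 genes tested. The 2 rises stand against 12.8% and the 2 falls against 14.6% of all genes. Under the female labels Adra1a (12% higher), Adcy5 (7.8%), Pde4d (7.1%) and Prkaca (3.8%) were called higher and Adrb1 (6.2% lower) was called lower, 5 of 9 against 29.3% of all genes, with 15.2% called higher and 14.0% lower. That female count was 2 without the 2 libraries with Krt12, where all genes called fell from 4309 to 2734. It was 3 without the library labelled female floxed 1, female floxed 2 or female cardioGRKO 1, and 2 without female cardioGRKO 3. Every one of these differences is small, at most 0.19 on the log2 scale. The median absolute difference of the 9 genes was 0.054 in males and 0.062 under the female labels, beside 0.041 and 0.043 over all genes tested. The libraries of the 2 genotypes did not overlap for 5 of 9 genes in either sex, against 41.4% of all genes in males and 40.7% in females. With 3 against 3 libraries the exact two-sided permutation test cannot go below p = 0.1, which it gave for each gene whose libraries did not overlap.

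**Figure D2:**
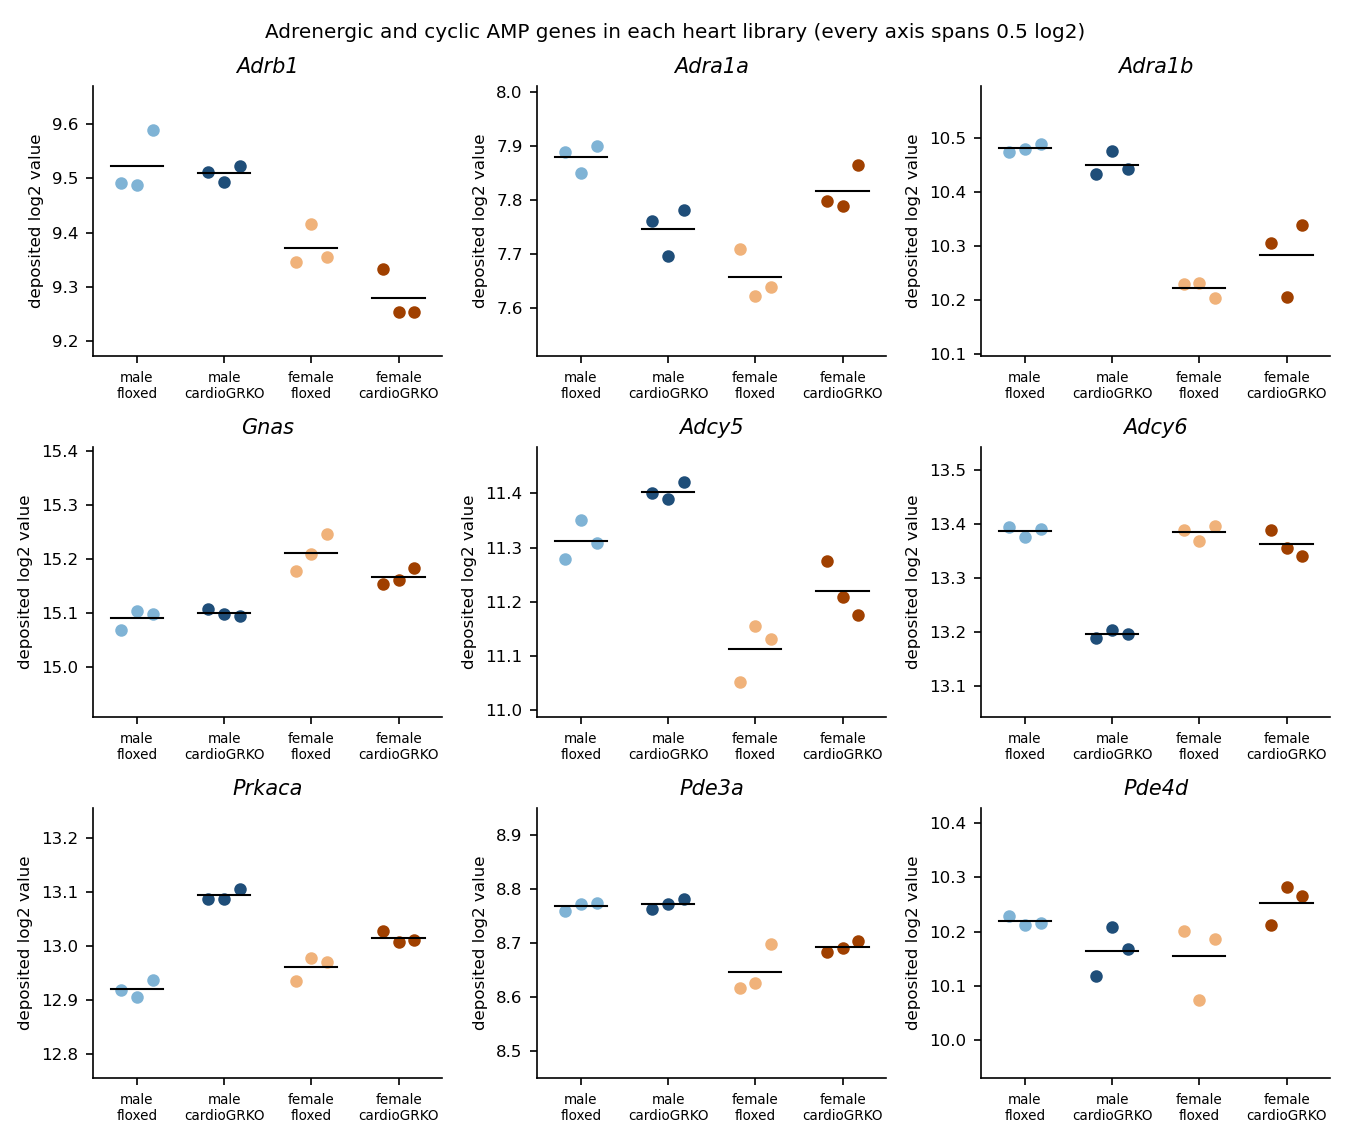
Deposited log2 values (vertical axes, each spanning 0.5) of the 9 genes in every library (points, in replicate order) and group means (lines). Adcy6 is set apart in male cardioGRKO libraries, at 13.19 to 13.20, and Adrb1, Adra1b, Adcy5 and Pde3a lie lower in the groups labelled female than in the male groups of the same genotype.

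Adcy6 and Adcy5 encode the main adenylyl cyclases of the cardiomyocyte. Its log2 values were 13.39, 13.38 and 13.39 in male floxed libraries and 13.19, 13.20 and 13.20 in male cardioGRKO libraries. Under the female labels they were 13.39, 13.37 and 13.40 in floxed and 13.39, 13.36 and 13.34 in cardioGRKO libraries. The male cardioGRKO libraries thus stood below all 9 others, and the other groups overlapped with each other. The male change was -0.19 (SE 0.017, limma adjusted p = 1.5e-07) and the female one -0.022 (adjusted p = 0.34). The 2 changes differed by 0.17 (SE 0.023, adjusted p = 2.9e-05). The male fall held in all 22 alternatives run, between -0.20 and -0.17. The 7 endothelial markers were all called lower in males, with a median of -0.16. Under the female labels, where Adcy6 was not called, 5 of 7 were called higher and 0 lower (median 0.11). Between the floxed groups 5 of 7 were lower and 0 higher under the female label (median -0.29). The part of these markers in the fall of Adcy6 was not tested. Between the floxed groups Adcy6 read 13.38 ± 0.014 (SD, n = 3) under the female label and 13.39 ± 0.0097 in males (adjusted p = 0.93), although quantile normalization put this difference at 0.044 (adjusted p = 0.038). An antisense gene of the GENCODE annotation (Gm29331) overlaps 605 of the 6038 exon bases of Adcy6, and the strand setting of the counting is not given in the sources used here.

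Adcy5, the other cardiac cyclase, moved the opposite way in males. Its values were 11.28, 11.35 and 11.31 in male floxed and 11.40, 11.39 and 11.42 in male cardioGRKO libraries. They were 11.05, 11.15 and 11.13 under the female floxed label and 11.28, 11.21 and 11.18 under the female cardioGRKO label. In each sex the cardioGRKO libraries lay above the floxed ones, and both female groups lay below the male group of their genotype. The change was 0.091 in males and 0.11 in females (SE 0.030 each, adjusted p = 0.032 and 0.012), and the changes did not differ by the test (0.017, SE 0.042, adjusted p = 0.80). The male call ended without male floxed 1 or 3 or male cardioGRKO 1, 2 or 3 (adjusted p = 0.13, 0.081, 0.071, 0.055 and 0.11). It also ended after median centring (0.054), with no filter (0.056) and with replicate number as a block within sex (0.066). The female call ended without the library labelled female floxed 1 or female cardioGRKO 1 (0.075 and 0.068) and without the 2 libraries with Krt12 (0.093). Within a library the log2 difference of Adcy6 and Adcy5, which needs no scaling between libraries, was 2.02 to 2.12 in male floxed and 1.77 to 1.81 in male cardioGRKO libraries. Under the female labels it was 2.21 to 2.34 and 2.11 to 2.17. This pair was picked after its values were seen, and the difference is given with no test.

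Prkaca encodes the main catalytic subunit of protein kinase A in the heart. Male floxed libraries read 12.92, 12.91 and 12.94 and male cardioGRKO libraries 13.09, 13.09 and 13.11. The libraries labelled female floxed read 12.94, 12.98 and 12.97 and those labelled female cardioGRKO 13.03, 13.01 and 13.01. All cardioGRKO libraries of a sex lay above the floxed ones, and the male cardioGRKO libraries above every other library. The male change was 0.17 (SE 0.017, limma adjusted p = 7.2e-07) and held in all 22 alternatives, from 0.16 to 0.22. The female change was 0.054 (adjusted p = 0.026). The female change minus the male one was -0.12 (SE 0.024, adjusted p = 0.0011). The female call ended after quantile normalization, at 0.0096 (adjusted p = 0.69), in a fit of the 2 groups alone (0.068) and with replicate number as a block within sex (0.0555). It also ended without the library labelled female floxed 1, female cardioGRKO 1 or female cardioGRKO 3 (0.12, 0.079 and 0.052). Without the 2 libraries with Krt12 the female change was 0.045.

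The sequences before the start sites of Prkaca and Adcy5, the genes that rose in both sexes by the labels, are shown because cyclic AMP and glucocorticoids each act on genes through a known DNA element. Windows of 250 bases before a start were taken from RefSeq (GRCm38.p6). Such windows were found for 6 of the 9 genes. Adcy6, Adra1a and Pde3a are the genes without one. Both strands were searched for the cyclic AMP response element TGACGTCA, for its core TGACG, which the full element contains, and for the palindromic glucocorticoid response element in a strict form and a loose form that contains it. Capitals mark matches. The Prkaca window at chr8:83972728-83972977, plus strand, holds 2 cores, which begin 120 and 6 bases before the start, and the window of a second Prkaca start has none. The Adcy5 window at chr16:35154614-35154863, plus strand, holds no match.
Prkaca: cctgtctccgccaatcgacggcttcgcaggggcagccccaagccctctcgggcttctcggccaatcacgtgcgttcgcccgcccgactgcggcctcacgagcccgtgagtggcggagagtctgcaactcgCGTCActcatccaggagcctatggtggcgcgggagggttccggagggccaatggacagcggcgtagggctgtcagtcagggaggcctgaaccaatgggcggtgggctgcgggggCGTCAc
Adcy5: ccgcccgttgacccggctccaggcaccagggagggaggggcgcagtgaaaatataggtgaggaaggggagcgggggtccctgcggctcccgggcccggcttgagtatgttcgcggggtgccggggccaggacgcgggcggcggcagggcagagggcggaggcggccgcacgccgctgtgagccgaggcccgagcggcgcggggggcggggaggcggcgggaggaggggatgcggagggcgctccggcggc
The core occurs in 17.8% and the full element in 1.55% of 32851 such windows, the loose glucocorticoid element in 0.387% and the strict one in 0.00913%. Neither the full cyclic AMP element nor either glucocorticoid form was found in any window of the 6 genes, and Adrb1 and 3 of the 4 Gnas windows each had 1 core, 2 of these Gnas windows overlapping each other. A match is a string of letters and was not tied to binding by any measurement here.

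Adrb1, the beta1 receptor, is the main beta-receptor of the cardiomyocyte. Its values were 9.49, 9.49 and 9.59 in male floxed and 9.51, 9.49 and 9.52 in male cardioGRKO libraries, which overlapped (-0.013, limma adjusted p = 0.82). Under the female labels they were 9.35, 9.42 and 9.35 in floxed and 9.33, 9.25 and 9.25 in cardioGRKO libraries, with no overlap. That female difference was -0.092 (SE 0.032, adjusted p = 0.041). It was among the least stable calls, as 12 of 22 alternatives ended it, with adjusted p up to 0.28, among them the omission of the library labelled female floxed 1 (0.051) or 2 (0.16), of female cardioGRKO 2 or 3 (0.135 each) and of male cardioGRKO 1, 2 or 3 (0.053, 0.051 and 0.052), which changes only the shared spread. The male and female changes did not differ by the test (-0.079, adjusted p = 0.21).

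Adra1a, the alpha1A receptor, moved in opposite directions in the 2 sexes. It read 7.89, 7.85 and 7.90 in male floxed and 7.76, 7.70 and 7.78 in male cardioGRKO libraries. It read 7.71, 7.62 and 7.64 under the female floxed label and 7.80, 7.79 and 7.86 under the female cardioGRKO label. The genotypes did not overlap in either sex. The change was -0.13 in males and 0.16 in females (SE 0.032 each, adjusted p = 0.0049 and 0.0014), and the changes differed by 0.29 (SE 0.046, adjusted p = 0.0001). All 3 calls held in every alternative run (22, 22 and 21), with the male change between -0.15 and -0.11 and the female one between 0.14 and 0.19. The difference follows the female labels, like each female value here, and Nr3c1 likewise was lower in male and higher in female cardioGRKO libraries.

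Adra1b, the alpha1B receptor, read 10.47 to 10.49 in male floxed, 10.43 to 10.48 in male cardioGRKO, 10.20 to 10.23 in the libraries labelled female floxed and 10.21 to 10.34 in those labelled female cardioGRKO, so that the genotypes overlapped in both sexes. Neither change was called (-0.030, adjusted p = 0.50, and 0.062, adjusted p = 0.12). Without the library labelled female cardioGRKO 2, the lowest of its group, the female change was 0.10 and was called (adjusted p = 0.0079), as was its difference from the male change (0.13, adjusted p = 0.0073).

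Gnas encodes the alpha subunit of the stimulatory G protein, from an imprinted locus with several start sites whose transcripts a gene total adds together. It ranged from 15.07 to 15.11 in male floxed, 15.09 to 15.11 in male cardioGRKO, 15.18 to 15.25 in female floxed and 15.15 to 15.18 in female cardioGRKO libraries by their labels. The changes of 0.0094 in males and -0.045 in females were not called (SE 0.017 each, adjusted p = 0.74 and 0.052), nor was their difference (-0.055, adjusted p = 0.090). For Gnas, one of the most abundant transcripts, the scaling mattered. After quantile normalization the male change was 0.062 and the female one -0.11, both called (adjusted p = 0.0058 and 3.9e-05), and after median centring the male value was -0.00092. The difference of the 2 changes was then -0.18 after quantile normalization (adjusted p = 1.0e-05), and it was also called without the library labelled female floxed 1 (-0.071, 0.028) and without the 2 libraries with Krt12 (-0.089, 0.0041). The female value was also called with robust moderation (adjusted p = 0.036), without the library labelled female floxed 1 (-0.062, 0.016) and without the 2 libraries with Krt12 (-0.080, 0.00285). The antisense gene Nespas and the protein-coding gene Gm20721, both on the opposite strand, overlap 9.52% and 14.2% of its exons. Nespas itself was listed at 0.87 to 0.89.

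Pde3a, a phosphodiesterase that acts on cyclic AMP near the calcium pump and is the target of milrinone, did not separate the genotypes. It read 8.76 to 8.77 in male floxed, 8.76 to 8.78 in male cardioGRKO, 8.62 to 8.70 under the female floxed and 8.68 to 8.70 under the female cardioGRKO label. The changes were 0.0045 and 0.046 (SE 0.026 each, adjusted p = 0.93 and 0.21). An antisense gene (Gm28523) overlaps 6.02% of its exons.

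Pde4d, a cyclic AMP-specific phosphodiesterase that is tethered to beta-receptors and to the calcium release channel, read 10.23, 10.21 and 10.21 in male floxed and 10.12, 10.21 and 10.17 in male cardioGRKO libraries. Under the female labels it read 10.20, 10.07 and 10.19 in floxed and 10.21, 10.28 and 10.26 in cardioGRKO libraries. The genotypes lay apart in both sexes, by a narrow margin, in opposite directions. The male change of -0.054 was not called (SE 0.033, adjusted p = 0.26), and the female one of 0.099 was (adjusted p = 0.033). The changes differed by 0.15 (SE 0.047, adjusted p = 0.019). The female call ended with no filter (adjusted p = 0.054), in a fit of the 2 groups alone (0.072) and with replicate number as a block within sex (0.057). It also ended without the library labelled female floxed 2, female cardioGRKO 2 or female cardioGRKO 3 (0.17, 0.12 and 0.091). Without the 2 libraries with Krt12 the female change was 0.067. The difference between the sexes lost its call without male cardioGRKO 1 (0.057), without the library labelled female cardioGRKO 2 (0.051) and without the 2 libraries with Krt12 (0.071).

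**Figure D3:**
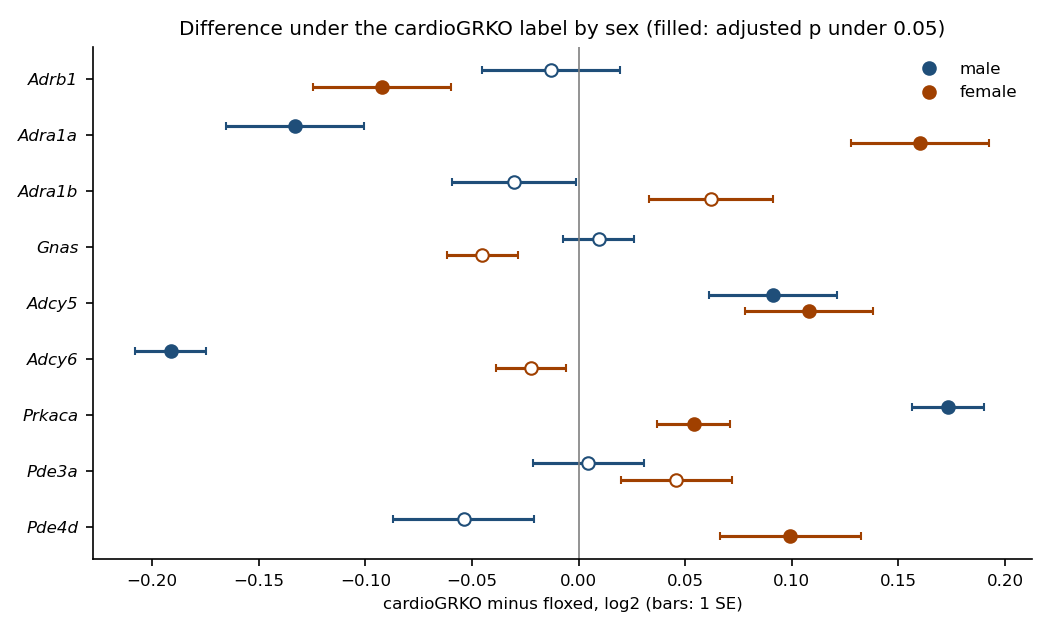
Log2 difference of cardioGRKO and floxed libraries (horizontal axis, bars of 1 SE from limma) for the 9 genes in males and under the female labels, with filled points for adjusted p under 0.05. Adra1a stands at -0.13 in males and 0.16 in females, Adcy6 is called in males (-0.19) and not in females (-0.022), and Adcy5 and Prkaca lie above 0 in both.

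The series title asks about sex, and the difference between the male and the female change was tested for each gene. It was called for 4 of 9 genes, Adra1a, Adcy6 and Pde4d with a higher and Prkaca with a lower female change, against 31.3% of all genes tested, 17.0% higher and 14.3% lower. The sexes were then compared within each genotype. Between the floxed groups 6 of 9 were called against 44.2% of all genes, and 7 of 9 had libraries that did not overlap, against 50.8%. Adra1b (-0.26), Adra1a (-0.22), Adcy5 (-0.20), Adrb1 (-0.15) and Pde3a (-0.12) were lower and Gnas (0.12) was higher under the female floxed label, with adjusted p from 1.9e-06 for Adra1b to 0.0013 for Adrb1 and Pde3a. The 5 lower and 1 higher stand beside 22.7% and 21.5% of all genes. Between the cardioGRKO groups 7 of 9 were called against 24.2% of all genes (12.4% lower and 11.9% higher). The libraries of all 9 were apart, against 40.1% of all genes. Adrb1 (-0.23), Adcy5 (-0.18), Adra1b (-0.17), Pde3a (-0.080) and Prkaca (-0.078) were lower and Adcy6 (0.17) and Gnas (0.066) higher under the female cardioGRKO label, with adjusted p from 1.4e-06 for Adcy6 to 0.035 for Pde3a. The Pde3a call between the cardioGRKO groups was lost with robust moderation (0.056) and without any 1 of the 6 cardioGRKO libraries (0.059 to 0.10). Its call between the floxed groups was lost without the 2 libraries with Krt12 (-0.071, 0.20). These comparisons share their libraries with those of genotype and are no separate support for them.

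Ordered by level, Adrb1, Adra1b, Adcy5 and Pde3a had both male groups above both female groups, and Gnas had both below. In that order the 2 male groups did not differ by the test for Adrb1, Adra1b, Pde3a and Gnas, nor did the 2 groups labelled female for Adra1b, Gnas and Pde3a. For Adcy6 the 3 upper groups were not told apart by the genotype test in females or the sex test in floxed libraries. For Prkaca male floxed and female floxed, its 2 lowest groups, did not differ by the test (0.041, adjusted p = 0.061), though they did after quantile normalization (0.13, 7.1e-06) and without male floxed 3 (0.048) or the library labelled female floxed 1 (0.030). For Adra1a the 2 cardioGRKO groups did not differ by the test (0.071, adjusted p = 0.13). For Pde4d they did not either (0.088, adjusted p = 0.063), but were called apart in 9 of 21 alternatives.

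The level of each gene beside its relatives was read per kilobase of exon, as the linear normalized value divided by the exon length of the GENCODE vM21 gene model. The relatives named in this paragraph were picked for their level. Adcy6 led the cyclases, at 1774 ± 11.9 (SD, n = 3) per kilobase in male floxed libraries, against 421 ± 2.09 for Adcy4 and 363 ± 9.06 for Adcy5. Among receptors Adra1b stood at 422 ± 2.11, Adrb1 at 249 ± 10.1 and Adra1a at 34.3 ± 0.616. Prkaca, at 3116 ± 35.4, was far above the other catalytic subunit Prkacb, at 415 ± 7.0. Gnas stood at 3363 ± 45.3 over 10376 exon bases, and the inhibitory subunit Gnai2 at 3770 ± 12.5 over 2300. As the length of Gnas takes in the exons of all its annotated start sites, these 2 values do not rank the genes. Among phosphodiesterases Pde2a led at 1022 ± 8.82, with Pde4a at 649 ± 6.13, Pde4b at 184 ± 4.85, Pde4d at 179 ± 1.15 and Pde3a at 35.5 ± 0.203. These values rest on gene models of another build than the mm9 that the processing notes name, they count every annotated exon, and non-cardiomyocyte cells add to them.

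**Figure D4:**
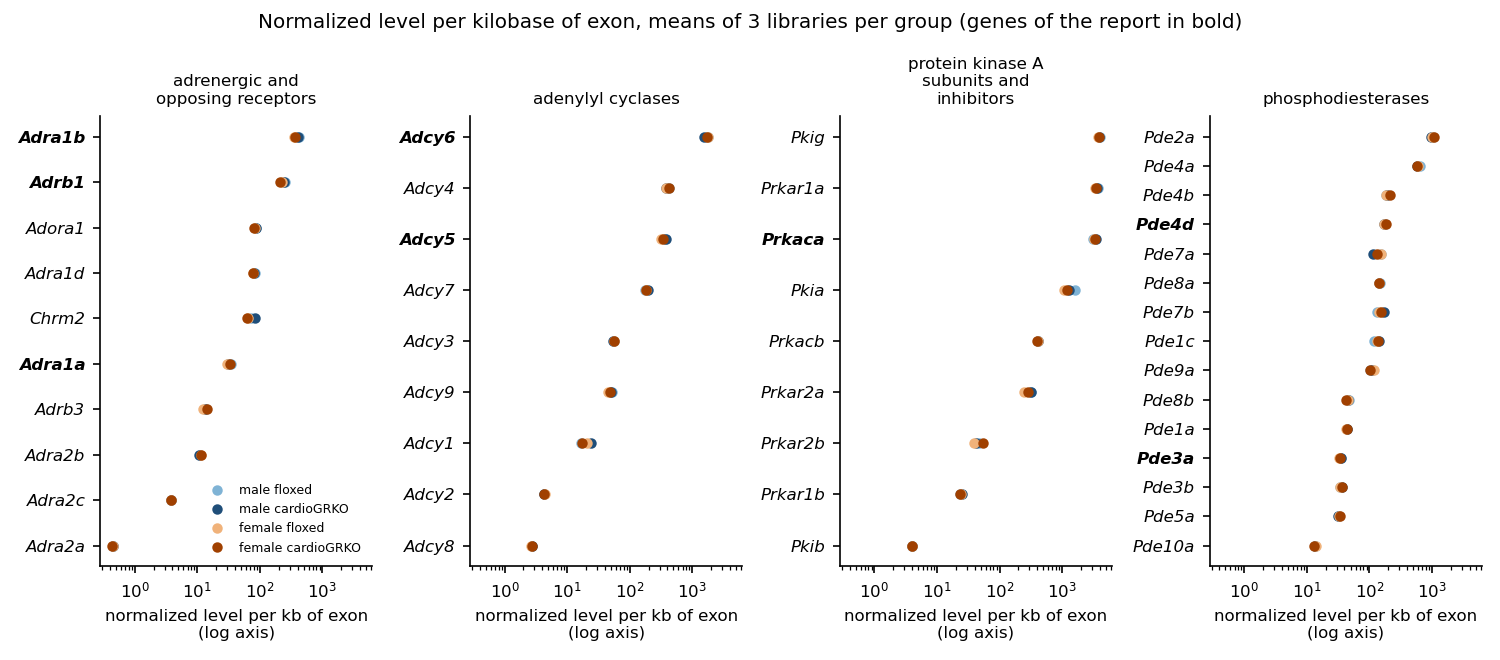
Mean linear normalized level per kilobase of exon (horizontal log axes) of genes from 4 families, not every member shown, for each group of 3 libraries (colours), ordered by male floxed level. Adra1b and Adcy6 stand at the top of their families at 422 and 1774 in male floxed libraries, and Pde3a stands among the lowest phosphodiesterases at 35.5.

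The wider pathway was read from 12 lists with 136 genes, of which 133 were tested. Of these, 27 rose and 30 fell in male cardioGRKO libraries and 30 rose and 25 fell under the female labels, or 42.9% and 41.4% of the list against 27.4% and 29.3% of all genes. Without the 2 libraries with Krt12 the female counts were 21 and 23. The count of each list below stands beside 12.8% of all genes higher and 14.6% lower in males, and 15.2% higher and 14.0% lower in females, and nothing particular to a list is read from it. Calls were spread over both directions, and the median difference of the pathway was -0.013 in males and 0.0053 in females, beside -0.0021 and -0.00037 over all genes.

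Among adrenergic and opposing receptors, 1 of 10 tested genes rose and 1 fell in males and 2 rose and 1 fell in females (1 and 2, and 2 and 0, after quantile normalization). Chrm2, the muscarinic receptor that slows the heart, rose by 0.22 in males (limma, adjusted p = 2.1e-05) and stood at -0.070 in females (adjusted p = 0.084), and Adrb3, the beta3 receptor also of brown fat, rose by 0.22 in females (adjusted p = 2.2e-06). All 6 tested adipocyte markers, the list with Ucp1, were called higher in that comparison too, with a median of 0.39. In males Adrb3 was -0.052 (adjusted p = 0.10). Of 14 G protein subunits 1 rose and 3 fell in males and 1 rose and 1 fell in females (2 and 2, and 0 and 2, after quantile normalization). Gnao1, an alpha subunit of the inhibitory class, rose by 0.57 in males and fell by 0.21 in females. The atrial markers were called in those same directions, 6 of 6 in each sex. Between the floxed groups 6 of 6 atrial markers were higher under the female label, where Gnao1 was higher (0.21) and Chrm2 lower (-0.14). The part of atrial muscle in the values of Gnao1 and Chrm2 was not tested. Gng11 and Gng12 changed by -0.15 and -0.10 in males. Gnai2 fell by 0.052 in males and rose by 0.076 in females, a female call that was lost after quantile normalization.

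Of 9 adenylyl cyclases 3 rose and 3 fell in males, and 3 rose and 1 fell in females (1 each without the 2 libraries with Krt12). Adcy1 rose by 0.54 in males and fell by 0.30 in females, a reversal shared in direction by the atrial markers, of which 6 of 6 were higher in males and 6 of 6 lower in females, with medians of 1.68 and -1.03. Adcy4, which stood beside Adcy5 in level, fell by 0.15 in males and rose by 0.17 in females, and 7 of 7 endothelial markers were lower in males and 5 of 7 higher in females. Adcy7 rose by 0.15 in males. Adcy9 fell by 0.098 in males and rose by 0.12 in females, a female call that was lost without the 2 libraries with Krt12. Of 9 kinase A subunits and inhibitors 2 rose and 2 fell in males and 4 rose and 0 fell in females (3 and 2 after quantile normalization). Pkia, an inhibitor peptide of the kinase, fell by 0.33 in males (adjusted p = 7.8e-09), where Prkaca rose, and rose by 0.17 in females. The regulatory subunit Prkar2b fell by 0.14 in males and rose by 0.48 in females, Prkar2a rose by 0.18 in females, and Prkar1b rose by 0.083 in males.

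Anchoring proteins, which hold the kinase at its sites, rose in 2 of 11 cases and fell in 1 in males (2 each after median centring), and rose in 4 and fell in 1 in females. Akap1, which sits on the outer mitochondrial membrane, fell by 0.24 in males and rose by 0.12 in females, and Akap6, which gathers the kinase with phosphodiesterases at the nuclear envelope, rose by 0.11 in both. Of 15 phosphodiesterases 4 rose and 3 fell in males and 3 rose and 4 fell in females. Pde7a fell by 0.45 in males and by 0.23 in females, Pde7b and Pde1c rose by 0.35 and 0.27 in males, and Pde4b rose by 0.18 in females. Pde9a rose by 0.13 in males and fell by 0.17 in females. Without the 2 libraries with Krt12 the female phosphodiesterase counts were 1 and 2. Other effectors of cyclic AMP rose and fell in 2 of 8 cases each in males (2 and 1 after quantile normalization) and in 3 and 1 in females. Rapgef3, the exchange factor Epac1, fell by 0.37 in males and stood at 0.0013 in females (adjusted p = 0.97). The pacemaker channel Hcn4 rose by 0.18 in males and by 0.14 in females.

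Receptor kinases, arrestins and regulators of G protein signalling rose in 4 of 13 cases and fell in 3 in males, and rose in 4 and fell in 2 in females. Grk5, a kinase that desensitizes beta-receptors, rose by 0.27 in males and 0.35 in females (adjusted p = 1.9e-06 and 1.6e-07). Rgs6 rose by 0.49 in males, where 6 of 6 atrial markers were higher. It stood at 0.059 in females (limma, adjusted p = 0.24), where 6 of 6 atrial markers were lower. The part of atrial muscle in its values was not tested. Rgs5, also a pericyte gene, fell by 0.27 in males and rose by 0.21 in females. Of the 8 smooth muscle and pericyte markers, which include Rgs5 itself, 6 were lower and 1 higher in males. In females 4 of these 8 were lower and 2 higher. Adrbk2, another receptor kinase, fell by 0.15 in females. In the alpha1 arm 1 of 11 rose and 2 fell in males (2 and 1 after quantile normalization) and 0 rose and 1 fell in females. Prkca, the main conventional protein kinase C of the heart, rose by 0.21 in males, Itpr2 and Plcb4 fell by 0.11 and 0.083 there (Plcb4 was not called after quantile normalization), and Dgkz fell by 0.078 in females.

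Of 12 substrates of the kinase 2 rose and 6 fell in males, but 4 rose and 3 fell after quantile normalization. The count in females was 4 each (1 higher and 5 lower after quantile normalization). The calcium release channel Ryr2, the calcium channel subunit Cacna1c and its inhibitor Rrad fell by 0.37, 0.23 and 0.15 in males. In females Cacna1c and Rrad fell by 0.32 and 0.39, Ryr2 was -0.019 (adjusted p = 0.38), and Ahnak rose by 0.21. Of the 10 general cardiomyocyte markers, 2 of them substrates on this list besides Ryr2, 6 were lower and 1 higher in males. Of the same 10, 1 was lower and 3 higher in females (median -0.0065). Of 15 CREB factors and genes that cyclic AMP induces, 3 rose and 2 fell in males, and 1 rose and 7 fell in females, where 15.2% of all genes rose and 14.0% fell. Nr4a1, Fos and Sik1, genes that cyclic AMP is known to induce, rose by 0.43, 0.22 and 0.26 in males, whereas in females Nr4a1, Fos, Per1 and Sik1 fell by 0.78, 0.74, 0.56 and 0.084. Per1, also a clock gene and a glucocorticoid target, fell by 0.092 in males as well. Of 6 tested genes of catecholamine handling 2 rose and 2 fell in males (1 and 2 after quantile normalization), and 1 rose and 2 fell in females. Maob, which deaminates monoamines, fell by 0.32 in males and 0.11 in females (the latter not called without the 2 libraries with Krt12), and Dbh, which makes noradrenaline, rose by 0.11 in males and fell by 0.23 in females. Th, the first enzyme of synthesis, and the noradrenaline transporter Slc6a2 did not pass the filter, and Th read 1.42 to 1.45 in all 12 libraries.

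**Figure D5:**
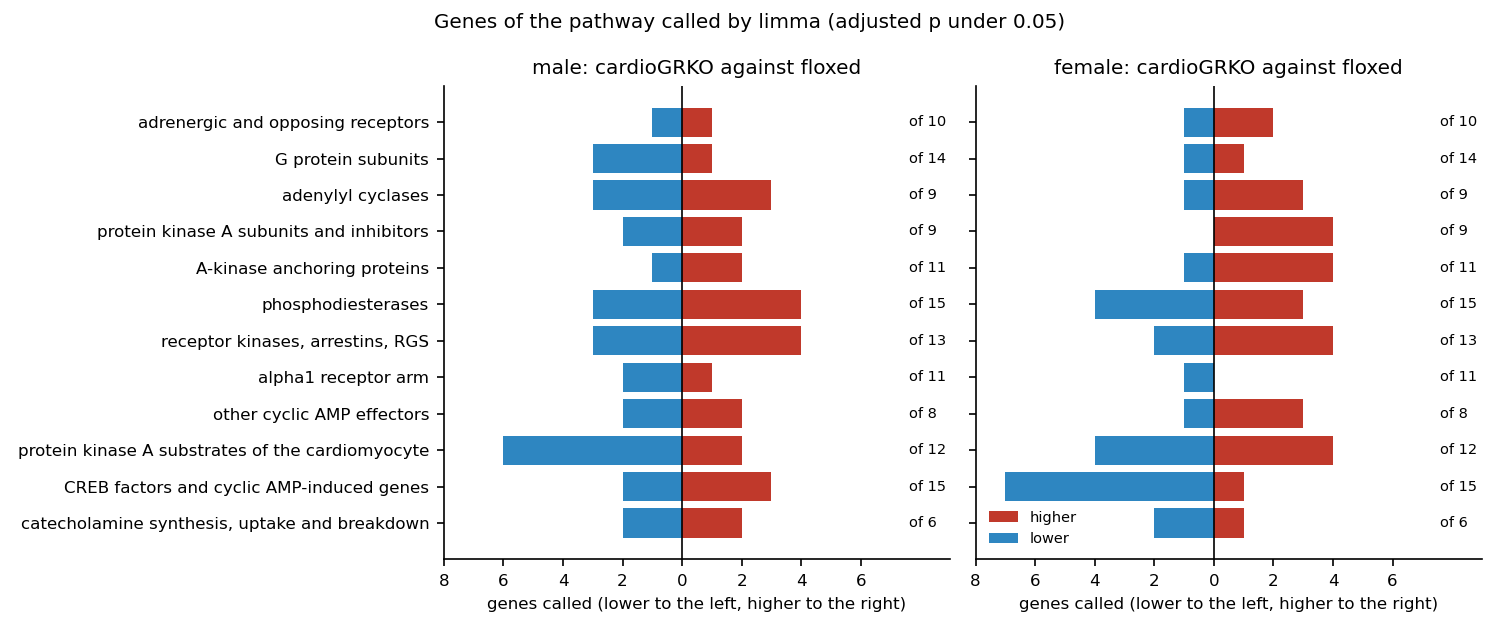
Genes called lower (left) and higher (right) by limma in 12 pathway lists (rows, with the number tested) for males and for the groups labelled female (horizontal axes, counts). Calls fall on both sides in most lists, with 6 of 12 kinase substrates lower in males and 7 of 15 CREB factors and targets lower in females, beside 14.6% and 14.0% of all genes.

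For each gene the most similar profiles were looked up among all genes tested, by Pearson's r over the 12 libraries, as a description. These r values mostly follow the 4 group means. Adcy6 was closest to Esam and Egfl7 (r = 0.976 and 0.959), both genes of endothelial cells, and Adcy5 to Cand2 and Agtrap (0.977 and 0.967). Prkaca was closest to Mical2 and Ppp1r3c (0.975 each), Adra1a to Mto1 and Mrps18a (0.971 and 0.956), Adra1b to Myo18a and C7 (0.971 and 0.968) and Adrb1 to Fitm1 and Eya2 (0.968 and 0.956). Gnas was closest to Setdb1 and Klf2 (0.970 and 0.967), Pde3a to Pex19 and Ednra (0.968 and 0.962) and Pde4d to Mphosph10 and Aamdc (0.904 and 0.902), the lowest of the 9.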

How the data were processed

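Total RNA of hearts was sequenced as 12 libraries on a NextSeq500 after an Illumina TruSeq kit, per the labels' protocols. The submitters' processing notes name Trim Galore, TopHat2, HTSeq, DESeq2 and the build mm9, without versions or settings. The values deposited by the authors are on a log2 scale, from -2.20 to 19.51, and 4895 genes are listed at 0 in every library. They are normalized between libraries, so sequencing depth is unknown and the precision is the spread between libraries. That they are shrunken for genes with few reads is inferred from the values, and differences may be understated. Symbols turned into dates (27) were restored by Entrez identifier.

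The 14721 genes with a linear normalized value of at least 10, before the log2, in 3 or more libraries were fitted with limma 3.58.1 in R 4.3.3: 1 mean per group over all 12 libraries, 8 residual degrees of freedom, empirical Bayes with an intensity trend. Adjusted p is two-sided, Benjamini-Hochberg over all genes tested, with calls below 0.05. Contrasted were the genotypes within each sex (cardioGRKO minus floxed), these changes with each other, and the sexes within each genotype (female minus male). The genes, lists, tests and alternatives were chosen with earlier results of these data known. From each pathway list up to 3 called genes per sex with the smallest p are named, and a few genes of the lists are counted but not reported here by name. On simulated data the male contrast recovered 44% and 98% of 50 genes changed by 0.1 and 0.25 log2 among 14721. The difference of changes recovered 22% and 90% of them. Far fewer genes were changed there than are called in the data, so recovery in the data may differ. Alternatives varied the filter, the scaling, the moderation, library weights, the groups in the fit, a replicate block and the libraries left out. Promoters are RefSeq's and gene models GENCODE vM21, both of build GRCm38, not the mm9 that the notes name.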

Additional observations from a re-analysis of the deposited data

Results flagged for a closer look

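The change under the cardioGRKO label differed between the sexes for 4 genes by the test of the difference itself (limma, female change minus male change). Nr3c1 was 0.14 higher, not lower, under the female cardioGRKO label, so each of these differences rests on labels that Nr3c1 did not bear out. Adra1a had the largest of these differences, 0.29, since it was lower in male and higher in female cardioGRKO libraries. Female minus male, Adra1a was -0.22 between the floxed groups and was not called between the cardioGRKO groups (0.071, limma adjusted p = 0.13). For Adcy6 the difference was 0.17, with a fall in males. For Pde4d it was 0.15, with opposite signs of which the female one was called. For Prkaca it was -0.12, with a larger rise in males. Dixon's criterion for single outlying values was not applied, as it was set for groups of 4 to 10 samples.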

How the results depend on the processing

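Over 22 alternatives per contrast (21 for the difference of changes and for the sex contrasts), the male calls of Adra1a, Adcy6 and Prkaca, the female call of Adra1a and the differences of change for Adra1a, Adcy6 and Prkaca kept their direction and their call. The count of genes called among the 9 under the female labels, 5, was less stable. It was 3 with no filter, 2 in a fit of those groups alone, 2 without the 2 libraries with Krt12 and 2 to 5 when 1 library was left out. All genes called in that contrast fell from 4309 to 2734 without the 2 libraries, which leaves 1 library in the floxed arm, assumed to vary like the other groups. Values near 0 changed sign. In males Pde3a was -0.0045 after quantile normalization, -0.0058 after median centring and -0.00024 to 0.0092 with 1 library left out, Gnas was -0.00092 after median centring and -0.0016 to 0.017 with 1 left out, and Adrb1 ranged from -0.030 to 0.020. Without the 2 libraries with Krt12, Pde3a was -0.0043 in females and its difference of changes -0.0088. The difference of changes of Adcy5 was -0.020 after quantile normalization, -0.0017 without the 2 libraries and -0.013 to 0.039 with 1 left out. Adcy6 between the floxed groups was 0.044 after quantile normalization, 0.0095 without the 2 libraries and -0.0079 to 0.0058 with 1 left out. The causes were not tested.

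Whether the replicate numbers pair the libraries cannot be told from these values. Deviations from the group means of same-numbered floxed and cardioGRKO libraries correlated over genes at -0.0555 to 0.0662 in males and -0.11 to 0.148 in females. For differently numbered libraries the range was -0.0725 to 0.0988 in males and -0.222 to 0.24 in females. With the replicate block within sex, the genes called among the 9 were 3 in males and 2 under the female labels. The sex contrasts cannot be estimated in that fit. Of the genes named from the pathway lists, 33 of 34 in males and 29 of 31 in females kept direction and call after quantile normalization. All did after median centring, and 31 of 31 kept direction in females without the 2 libraries with Krt12. These genes were named as called with the smallest p in the same data, so most were bound to keep their calls. Counts over whole lists moved for some, as given above for the kinase substrates.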
